A study of Rattus norvegicus with 6 samples.

Results

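Transcripts of 7 secreted inhibitors of Wnt signalling were followed in rat hearts after repeated doxorubicin. The genes were Sfrp1, Sfrp2, Sfrp4, Sfrp5, Frzb, Dkk3 and Wif1, 7 of the 17487 gene symbols in the deposited count table, and each stood on 1 row. They were taken by symbol as a family, and the family was picked because Sfrp1 was higher in every heart of the doxorubicin group. The family was thus selected on the Sfrp1 counts of doxorubicin against control hearts, and the values of the 7 genes in that contrast are given as a description without a test.

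The animals were adult male Wistar rats, an outbred stock. In the doxorubicin group 3 rats received doxorubicin hydrochloride, an anthracycline chemotherapy drug, at 3.75 mg/kg by tail vein each week for 4 weeks, and in the control group 3 rats received 0.9% saline on the same schedule. The labels name no allele, transgene or further agent in either group, and 1 mRNA library was sequenced per heart, so rats and libraries share their numbers; treated means given doxorubicin. The labels do not state the region of the heart, the interval after the last injection or the age of the rats.

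The libraries held 2219685 to 3508282 counts, a shallow depth at which 5 of the 7 genes had at most 25 counts in any library. Levels are given as CPM (library-size-scaled counts, with libraries brought to a common scale by the trimmed mean of M-values), and 3 counts, the smallest level called detectable, corresponded to 0.852 to 1.33 CPM. Intervals and floors cover counting error only. Cardiomyocyte markers were abundant in every library, with a summed level of 83660 to 107600 CPM over the 8 markers in the table, so the tissue label held. Control rat 1 stood apart from the others: the summed level of 5 atrial myocyte markers was 270.7 CPM there and 30.27 to 54.53 CPM elsewhere, mostly from Myl7 at 164 CPM against 2.06 to 6.42 CPM. Results that rest on that library are given with and without it.

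Wnt proteins are secreted lipid-modified ligands that bind Frizzled receptors, and together with the co-receptors Lrp5 and Lrp6 they keep beta-catenin from being degraded. Secreted frizzled-related proteins (Sfrp1, Sfrp2, Sfrp4, Sfrp5 and Frzb) carry a cysteine-rich domain like that of the Frizzled receptors and can hold Wnt ligands outside the cell, and Wif1 binds Wnt ligands through a different domain. Dkk3 belongs to the Dickkopf family, whose best known members block Lrp5 and Lrp6, although Dkk3 itself is a divergent member whose effect on Wnt signalling differs between settings. In the heart this signalling is quiet in the healthy adult and is known to be engaged again after injury, and fibroblasts are a known source of several of these inhibitors.

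Sfrp1, a member of the secreted frizzled-related family, stood at 9.93, 14.7 and 13.6 CPM in control rats 1, 2 and 3. In treated rats 1, 2 and 3 it stood at 41.4, 27.1 and 64.8 CPM. The lowest treated heart was 1.85 times as high as the highest control heart, so the groups did not overlap. These levels came from 26, 33 and 48 counts in the control rats and from 129, 87 and 220 counts in the treated rats. The group means were 12.7 ± 2.49 and 44.5 ± 19.0 CPM (SD, n = 3), a ratio of 3.49. The fitted log2 fold change (log2FC) of treated over control hearts was 1.80 (SE 0.32), and 18 of the 9205 symbols tested had a larger increase, 3 of them at a mean level at least as high as that of Sfrp1.

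**Figure D1:**
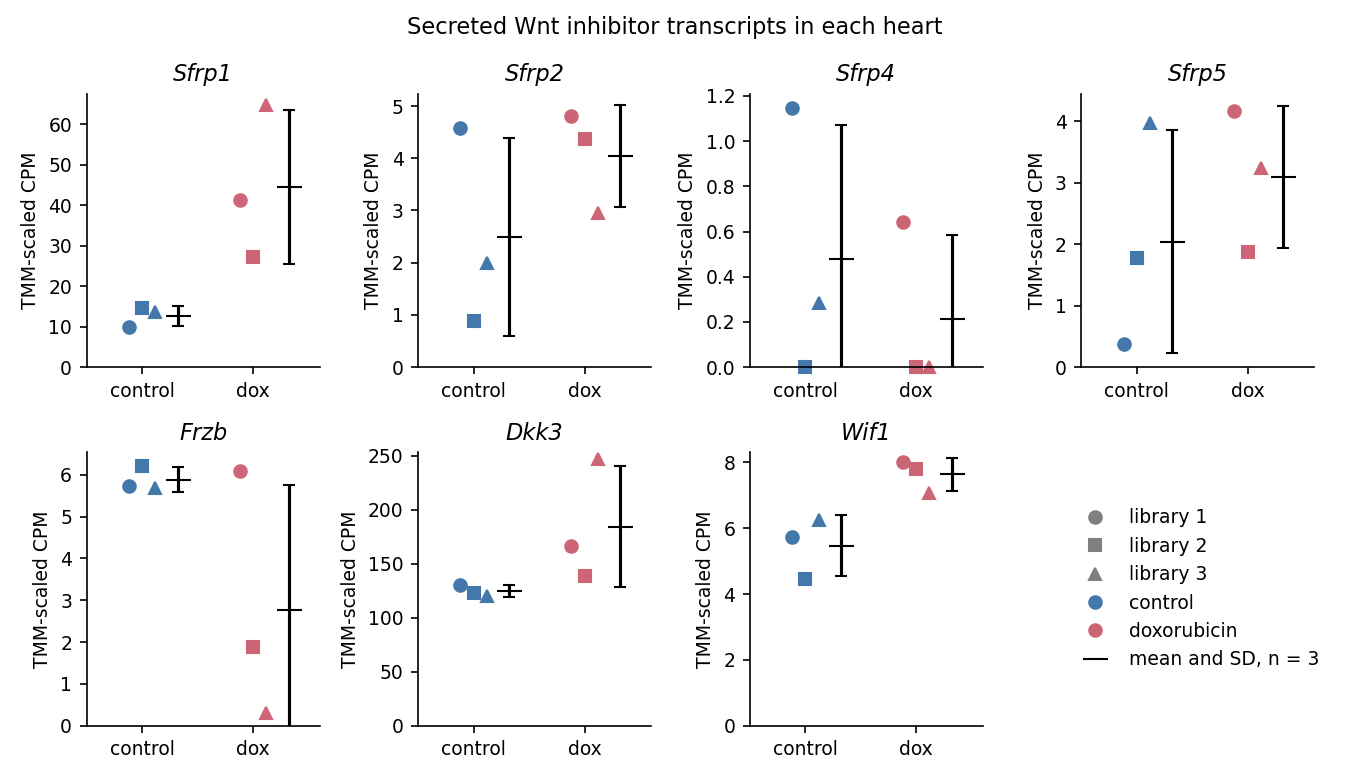
TMM-scaled CPM (vertical axes, linear, each gene on its own scale) of the 7 secreted Wnt inhibitors in the 3 control and the 3 treated hearts; symbols mark the library number, and the black bars give the mean and SD (n = 3), ending at 0 where the SD would pass below it. Sfrp1 lies at 27.1 to 64.8 CPM in treated and 9.93 to 14.7 CPM in control hearts, Dkk3 and Wif1 also lie higher without overlap, and Frzb in treated hearts runs from 0.295 to 6.10 CPM.

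The treated hearts differed among themselves more than the control hearts did in Sfrp1. Its coefficient of variation was 42.8% in treated and 19.5% in control hearts, where counting error alone would give about 8.30% and 16.7%. The spread of the controls was thus close to counting error, and that of the treated hearts was well above it. Without treated rat 3, the highest, the log2FC was 1.44 (SE 0.30). Without treated rat 2, the lowest, it was 2.07 (SE 0.29). Without control rat 1 it was 1.66 (SE 0.36).

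The Sfrp1 levels were set beside the share of beta myosin heavy chain, Myh7, in the counts of Myh6 and Myh7 together, a marker of the stressed rodent ventricle. These are close paralogs, and the treatment of reads that fit both is not known here. Treated rat 2, with the least Sfrp1, had a Myh7 share of 36.5%. Treated rats 1 and 3 had shares of 71.2% and 62.8%. The Myh7 share was 30.6%, 11.6% and 12.5% in control rats 1, 2 and 3, and control rat 1, with the highest share of these, had the least Sfrp1. The atrial natriuretic peptide transcript Nppa followed another order, at 3250, 277 and 902 CPM in treated rats 1, 2 and 3. It stood at 444, 376 and 161 CPM in control rats 1, 2 and 3, so treated rat 2 lay within the control range.

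Fibroblast markers were split between higher and lower values. Of 12 fibroblast markers, all of them tested, 5 were above and 7 below control, the median log2 fold change was -0.06, and 0 passed the adjusted threshold in edgeR, with 0 at an unadjusted p under 0.05. Their summed level was 6142 to 6588 CPM in control and 5533 to 8076 CPM in treated hearts. Treated rat 3, which had the most Sfrp1, had the lowest sum, 5533 CPM. The 2 most abundant of these markers, Gsn and Col3a1, had log2FCs of 0.08 (SE 0.18) and -0.31 (SE 0.33). Pdgfra, a receptor gene that marks cardiac fibroblasts, was not picked by abundance. It was at 75.1 ± 10.3 CPM in control and 78.6 ± 10.2 CPM in treated hearts (SD, n = 3). Per 100 Pdgfra counts there were 15.5, 19.2 and 16.1 Sfrp1 counts in control rats 1, 2 and 3, and 61.7, 31.3 and 79.1 in treated rats 1, 2 and 3. The ratio of the group means, 3.39, was close to that of the CPM values. In tissue RNA, a change in the number of cells of a type and a change in RNA per cell cannot be told apart.

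Summed levels of macrophage and of cardiomyocyte markers did not overlap between the groups either. The summed level of 10 macrophage markers was 229.5 to 241.7 CPM in control and 288.2 to 460.5 CPM in treated hearts, with 8 of 9 tested markers above control and Ptprc listed at 0. It was highest in treated rat 2, the treated heart with the least Sfrp1. The summed cardiomyocyte level was 100800 to 107600 CPM in control and 83660 to 94360 CPM in treated hearts. Of the 8 markers 2 were above and 6 below control, with a median log2 fold change of -0.125. Much of the difference in the sum was in Myh6, at 24591 ± 5083 and 14821 ± 5277 CPM (SD, n = 3), and without Myh6 the summed levels overlapped. The part of macrophages or cardiomyocytes in the Sfrp1 difference was not tested.

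The other secreted frizzled-related genes had few counts, and in none of them did the treated hearts all lie above the control hearts. Sfrp2, which is also known to bind a procollagen proteinase, stood at 4.58, 0.889 and 1.99 CPM in control rats 1, 2 and 3 and at 4.81, 4.37 and 2.95 CPM in treated rats 1, 2 and 3. The groups overlapped, because control rat 1 was within the range of the treated hearts. The log2FC was 0.68 (SE 0.55) on 2 to 15 counts per library, and without control rat 1 it was 1.39 (SE 0.64). At least 10 Sfrp2 counts were held by 3 treated rats and 1 control rat, so it passed the low-count filter mostly on treated hearts.

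Sfrp5, known from adipose tissue as an inhibitor of Wnt5a, stood at 0.382, 1.78 and 3.98 CPM in control and at 4.17, 1.87 and 3.24 CPM in treated rats 1, 2 and 3. The control hearts alone spanned almost the whole range, on 1, 4 and 14 counts. At least 10 counts were held by 2 treated rats and 1 control rat, so Sfrp5 too passed the low-count filter mostly on treated hearts. The log2FC of 0.50 with an SE of 0.64 was 0.05 (SE 0.62) without control rat 1 and 1.53 (SE 0.83) without control rat 3, so single control rats set its size. Of the adipocyte markers, Cidec and Retn were listed at 0, Adipoq had at most 7 counts in a library and the most abundant, Cfd, averaged 7.39 ± 1.77 and 11.3 ± 4.89 CPM (SD, n = 3) in control and treated hearts.

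Sfrp4 had 3, 0 and 1 counts in control rats 1, 2 and 3 and 2, 0 and 0 counts in treated rats 1, 2 and 3. Each library was at or under the floor of 3 counts, so no fold change is given, and a difference was not detectable at this depth.

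Frzb, also called secreted frizzled-related protein 3 and best known from cartilage, was the 1 tested gene of the family with a lower fitted level. Control rats 1, 2 and 3 were close together at 5.73, 6.22 and 5.68 CPM. Treated rat 1 was within that range at 6.10 CPM, whereas treated rats 2 and 3 were at 1.87 and 0.295 CPM. Treated rat 3 held 1 Frzb count, against 14 to 20 counts in the control rats, and the same library held the most Sfrp1. The log2FC of -1.10 with an SE of 0.64 rested on those treated hearts: it was -2.41 (SE 0.69) without treated rat 1 and -0.55 (SE 0.53) without treated rat 3. Frzb passed the low-count filter through the control group, in which all 3 libraries had at least 10 counts, against 1 treated rat. Of 8 cartilage and valve matrix markers 3 were tested (Sox9, Fmod and Scx), all 3 below control with 0 past the adjusted threshold and 0 at an unadjusted p under 0.05 in edgeR, and their part in the Frzb values was not tested.

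Dkk3 was measured most precisely of the 7 genes, on 277 to 839 counts per library. It stood at 131, 123 and 120 CPM in control rats 1, 2 and 3 and at 167, 139 and 247 CPM in treated rats 1, 2 and 3. The groups did not overlap, but the lowest treated heart was only 1.07 times as high as the highest control heart. The group means were 124 ± 5.52 and 184 ± 56.2 CPM (SD, n = 3), and the log2FC was 0.57 (SE 0.21). Treated rat 3 carried much of this, since without it the log2FC was 0.31 (SE 0.20). Within the doxorubicin group Dkk3 and Sfrp1 had the same order, with rat 3 highest and rat 2 lowest, and within the control group Dkk3 was highest in control rat 1, where Sfrp1 was lowest.

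Wif1, the Wnt inhibitory factor that carries its own ligand-binding domain, stood at 5.73, 4.44 and 6.25 CPM in control and at 8.02, 7.80 and 7.07 CPM in treated rats 1, 2 and 3. The groups did not overlap, with the lowest treated heart 1.13 times as high as the highest control heart. The log2FC was 0.46 (SE 0.37), on 10 to 22 counts per control rat and 24 or 25 per treated rat. The spread between treated hearts, a coefficient of variation of 6.51%, was smaller than the 20.1% that counting error alone would give.

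Summed over the 7 genes, the inhibitor transcripts stood at 158.1, 151.0 and 151.6 CPM in control rats 1, 2 and 3 and at 231.8, 182.2 and 325.7 CPM in treated rats 1, 2 and 3. Counts are not corrected for transcript length, so sums and shares are compared between hearts and not between genes. Most of the summed counts were from Dkk3 and Sfrp1: the other 5 genes together had 30 to 64 counts per control rat and 46 to 74 per treated rat. Sfrp1 took 6.28% (Wilson 95% interval 4.32 to 9.04), 9.71% (6.99 to 13.3) and 8.99% (6.85 to 11.7) of the counts of the 7 genes in control rats 1, 2 and 3. In treated rats 1, 2 and 3 it took 17.9% (15.2 to 20.8), 14.9% (12.2 to 18.0) and 19.9% (17.7 to 22.4). The mean share was 8.33% ± 1.81 in control and 17.6% ± 2.52 in treated hearts (SD, n = 3). Per 100 Dkk3 counts there were 7.60 to 11.9 Sfrp1 counts in control and 19.5 to 26.2 in treated hearts, so Sfrp1 was also higher relative to Dkk3 in each treated heart. Among the 5 secreted frizzled-related genes alone, the share of Sfrp1 was 45.6% to 62.3% in control and 72.5% to 90.9% in treated hearts.

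**Figure D2:**
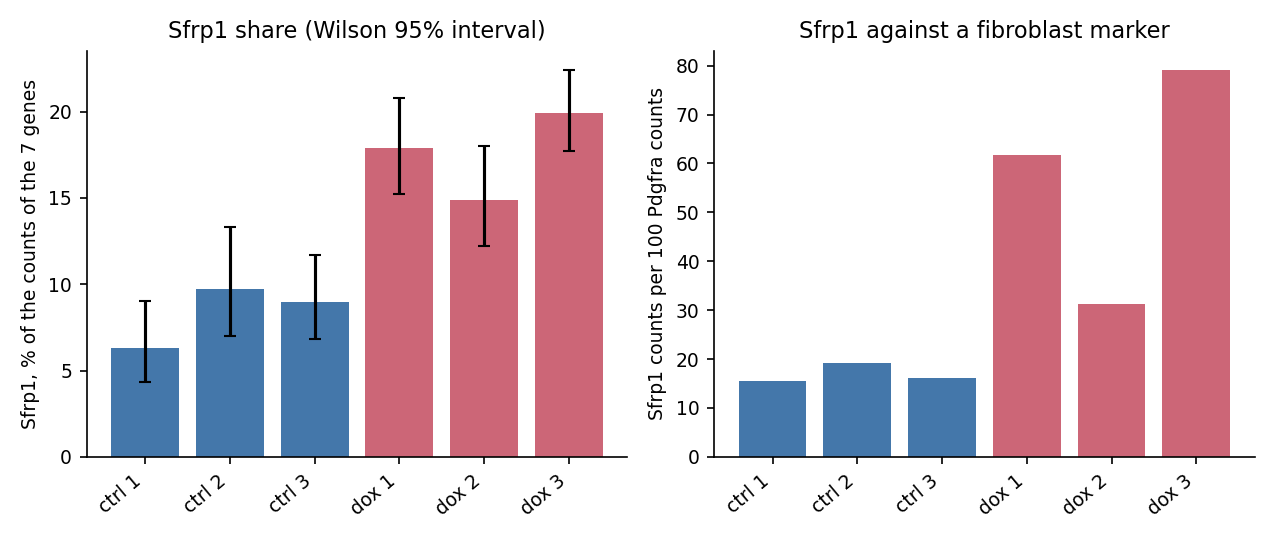
Left, Sfrp1 as a percent of the counts of the 7 secreted Wnt inhibitors in each library, with Wilson 95% intervals (counting error only); right, Sfrp1 counts per 100 counts of the fibroblast gene Pdgfra; ctrl is control, dox is doxorubicin, and axes start at 0. The share lies at 6.28% to 9.71% in control and 14.9% to 19.9% in treated rats, and the ratio to Pdgfra at 15.5 to 19.2 and 31.3 to 79.1.

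The fit across all symbols gives the background for these genes. edgeR's quasi-likelihood test called 5 of the 9205 symbols it tested at a Benjamini-Hochberg adjusted p under 0.05, which is 0.0543%. Of the 7 genes 6 passed the low-count filter, and 0 of the 6 were called. At an unadjusted p under 0.05, where 8.10% of all tested symbols lay, there were 2, Sfrp1 and Dkk3. DESeq2 called 1 of 7, Sfrp1, and limma voom 0 of 6. All doxorubicin values lay above all control values for Sfrp1, Dkk3 and Wif1, 3 of 6, where 6.39% of tested symbols did so. Since the same contrast chose the family, nothing is read from these counts.

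**Figure D3:**
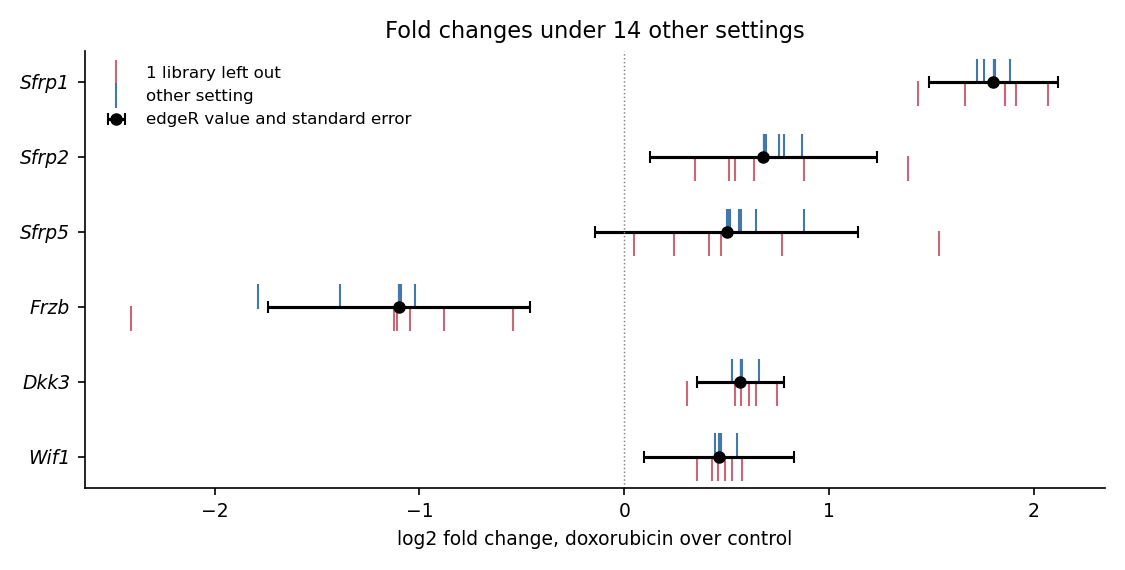
Fitted log2FC of doxorubicin over control for the 6 tested inhibitors: black points and bars, the edgeR value and its standard error; red ticks, fits that each left out 1 library; blue ticks, other scalings, filters, tools and the replicate block. Sfrp1 runs from 1.44 to 2.07, whereas Sfrp5 runs from 0.05 to 1.53 and Frzb from -2.41 to -0.55 as single libraries are left out.

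Other genes of the Wnt pathway were taken from 8 lists by role, with the 7 inhibitors left out, and here the edgeR test applies. Of 136 listed genes 124 were in the table and 77 passed the filter. None of the 77 had an adjusted p under 0.05 in edgeR, against 0.0543% of all tested symbols, and limma voom also called 0. DESeq2, run without the low-count filter but with its own default filtering by mean count, called 0 of 111 pathway genes and 75 of 13048 symbols. At an unadjusted p under 0.05 there were 4 (5.19%), 1 higher and 3 lower, against 8.10% of all tested symbols. The median log2 fold change was 0.08, with 48 of 77 above 0, beside 0.02 and 52.1% over all tested symbols. A full separation of treated from control hearts was seen in 13 of the 77 (16.9%), beside 13.4% of all tested symbols. Treated hearts were higher in 7 of these and lower in 6, and only some of the 13 are pointed out below.

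Wnt ligands and their secretion genes were mostly too low to test, and 5 of 21 passed the filter. Wls, the carrier that takes Wnt proteins to the cell surface, was at 65.8 ± 7.70 CPM in control and 70.4 ± 10.8 CPM in treated hearts (SD, n = 3). Wnt5a, a ligand known for beta-catenin-independent signalling, had a log2FC of -0.18 with an SE of 0.25. The 4 tested ligands all had fitted values below 0, with a list median of -0.46. For Wnt5b and Wnt11, named after their values were seen, all treated hearts lay below all control hearts, a pattern shared by 7.06% of tested symbols. Wnt11 was at 27.9, 28.0 and 30.4 CPM in control and at 16.7, 23.7 and 22.1 CPM in treated rats 1, 2 and 3, with an edgeR adjusted p of 0.636. Wnt5b was at 8.40, 7.997 and 7.67 CPM in control and at 5.46, 5.62 and 2.36 CPM in treated rats 1, 2 and 3, with an edgeR adjusted p of 0.624. The list median turned positive with no filter, 0.76 over 16 genes and 0.72 with DESeq2, because ligands with a handful of counts then entered it.

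Receptors were detected more fully, with 11 of 16 tested, 8 of them above control and a median of 0.16. Lrp6, a co-receptor of the beta-catenin branch, stood at 8.78, 15.5 and 11.9 CPM in control and at 19.6, 14.98 and 26.2 CPM in treated rats 1, 2 and 3. The groups overlapped, because treated rat 2 lay below control rat 2. Its log2FC of 0.75 with an SE of 0.31 had an adjusted p of 0.544 in edgeR, from 0.339 to 0.982 over the alternatives. The other co-receptor, Lrp5, had a log2FC of -0.20 with an SE of 0.17, and the receptor Ryk had 0.36 (SE 0.21).

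Of 16 other extracellular antagonists only 4 were tested, 3 of them above control, with a median of 0.26. The most abundant were Igfbp4, an insulin-like growth factor binding protein gene, at a log2FC of -0.14 (SE 0.29), and Tpbg, at 0.04 (SE 0.29). Dkk1, the best known Lrp5 and Lrp6 blocker, had at most 1 count in a library, and Sost, Kremen2 and Cer1 were listed at 0. In the R-spondin and norrin axis 5 of 13 genes were tested, and Tspan12 and Lgr4 had log2FCs of 0.02 (SE 0.19) and 0.38 (SE 0.25).

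Inside the cell, 18 of 19 cytoplasmic transducers were tested, 12 above control, with a median of 0.14. Ctnnb1, which encodes beta-catenin, was at 232 ± 26.6 CPM in control and 229 ± 19.8 CPM in treated hearts (SD, n = 3), and Gsk3a, a kinase of its destruction complex, had a log2FC of -0.25 with an SE of 0.18. Ctnnbip1 encodes a small protein that keeps beta-catenin from its nuclear partners. It stood at 46.6, 40.4 and 42.6 CPM in control and at 30.8, 29.6 and 27.4 CPM in treated rats 1, 2 and 3. All treated hearts lay below all control hearts, as for 7.06% of tested symbols. The log2FC of Ctnnbip1, -0.56 with an SE of 0.20, had an adjusted p of 0.451 in edgeR, from 0.452 to 0.819 over the alternatives.

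Of the nuclear effectors 13 of 16 were tested, 4 above control, with a median of -0.08. Tle5, a short co-repressor of the Groucho family, stood at 2868, 1731 and 1879 CPM in control and at 1353, 1733 and 1474 CPM in treated rats 1, 2 and 3. Its log2FC of -0.51 with an SE of 0.22 had an adjusted p of 0.561 in edgeR and was -0.24 (SE 0.15) without control rat 1, which was the highest. The co-repressor Ctbp1 had a log2FC of -0.14 with an SE of 0.19.

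Known beta-catenin target genes pointed both ways, with 6 of 14 tested, 4 above control and a median of 0.18. Axin2, the target most often used as a readout, failed the filter with 3 to 7 counts per library, at 1.15, 1.78 and 1.70 CPM in control and 2.25, 1.56 and 2.06 CPM in treated rats 1, 2 and 3. A difference in Axin2 was not detectable at this depth. The cyclin gene Ccnd1 was at 128 ± 6.30 and 124 ± 62.2 CPM (SD, n = 3) in control and treated hearts, and Jun, an AP-1 subunit gene, had a log2FC of 0.30 with an SE of 0.17. All treated hearts lay above all control hearts for 3 of the 6 tested targets, Jun, Myc and Cd44, a pattern shared by 6.39% of tested symbols, and Myc and Cd44 are named after their values were seen. The log2FCs of Myc, a growth-related transcription factor gene, and Cd44, a hyaluronan receptor gene, were 0.47 (SE 0.35) and 0.56 (SE 0.26), with edgeR adjusted p of 0.771 and 0.615. Ccn5, a matricellular protein gene, stood at 4.96, 4.44 and 3.69 CPM in control and at 2.25, 2.18 and 1.18 CPM in treated rats 1, 2 and 3, and all treated hearts lay below all control hearts, as for 7.06% of tested symbols. Its log2FC was -1.20 (SE 0.49) on 4 to 13 counts per library, with an adjusted p of 0.542 in edgeR. Like Frzb, Ccn5 passed the low-count filter through the control group alone, the only group in which it reached 10 counts.

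The beta-catenin-independent branch of planar polarity and calcium signalling had 15 of 21 genes tested, 13 above control, with a median of 0.14. Without control rat 1 there were 9 of 15 above control, with a median of 0.10. Without treated rat 3 there were 8 of 15, with a median of 0.04. The 2 most abundant genes of the branch, Rock2 and Rhoa, had log2FCs of 0.33 (SE 0.25) and 0.01 (SE 0.18). Rock2 was lowest in control rat 1, at 151 CPM against 301 and 251 CPM in control rats 2 and 3. With scaling by library size only, which shifts all symbols together, the median of all tested symbols was 0.10, that of the 77 pathway genes was 0.17 and 55 of the 77 lay above 0.

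**Figure D4:**
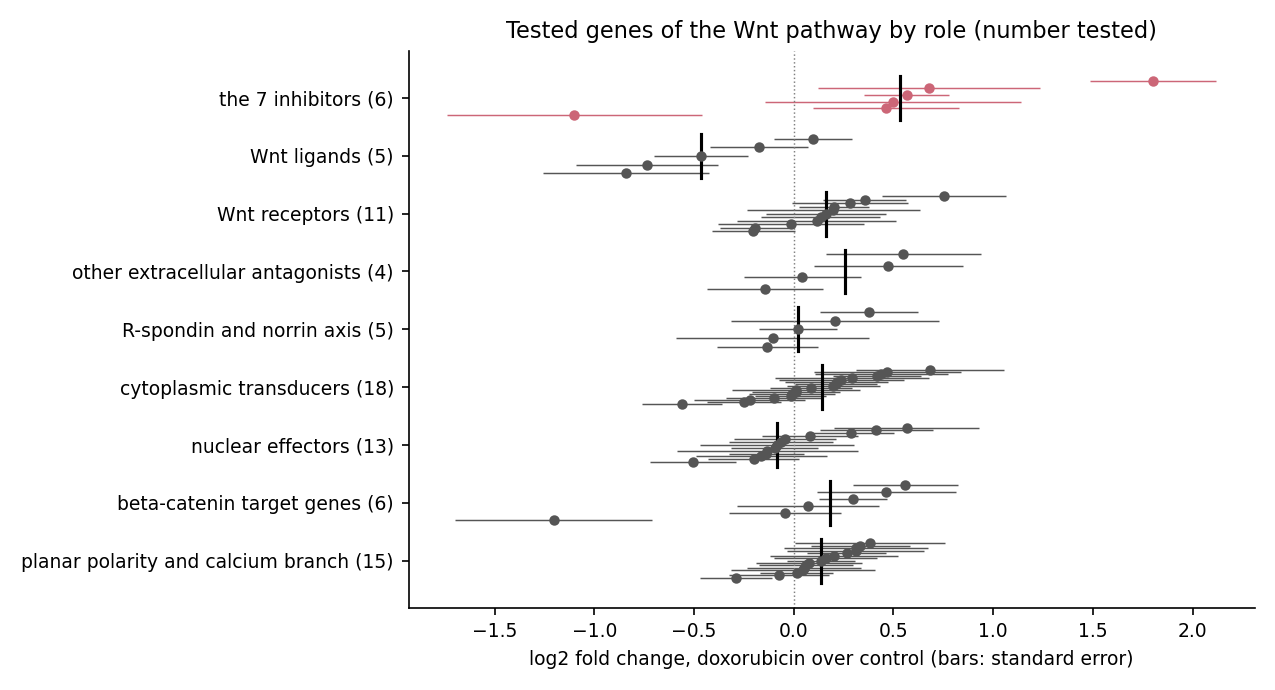
Log2 fold change of doxorubicin over control for each tested gene, by role in the Wnt pathway, with the number tested in brackets; points are genes, horizontal bars are standard errors and black ticks are list medians. Sfrp1 at 1.80 lies to the right of the 77 pathway genes, but the family was picked on its increase, so nothing is read from its place. The list medians of the 77 genes run from -0.46 for ligands to 0.26 for other extracellular antagonists.

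Secreted frizzled-related proteins are also known to act on proteinases outside Wnt signalling. Of 6 genes of this kind 3 were tested: the procollagen proteinase gene Bmp1, its enhancer Pcolce and the sheddase Adam10 had log2FCs of 0.17 (SE 0.22), 0.05 (SE 0.25) and 0.37 (SE 0.25). None passed the adjusted threshold in edgeR, 0 had an unadjusted p under 0.05 and limma voom also called 0. DESeq2, without the low-count filter, called 0 of 5.

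The transcripts most like Sfrp1 were sought among the other 8606 tested symbols with a mean of at least 5 CPM, by Pearson's r of log2 CPM over the 6 libraries. Because the groups separate, r mostly reflects the group difference together with the order within the treated hearts, and it is given as a description over 6 points that share their libraries. The highest were Ssh2, a cofilin phosphatase gene (0.998), Sipa1l1 (0.993), the cytochrome P450 gene Cyp4f1 (0.989), the cardiac transcription factor gene Gata6 (0.987) and Rgs2, a regulator of G protein signalling (0.986). An r above 0.95 was reached by 35 symbols, and Dkk3 stood at rank 116 with 0.899. The sizes were smaller than for Sfrp1: Rgs2 was at 17.3 ± 1.21 and 33.2 ± 5.69 CPM, Gata6 at 123 ± 6.15 and 173 ± 28.8 CPM, and Ssh2 at 23.5 ± 2.19 and 37.3 ± 6.97 CPM in control and treated hearts (SD, n = 3). In each of the 5, treated rat 3 was highest and treated rat 2 lowest of the treated hearts, as for Sfrp1.

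**Figure D5:**
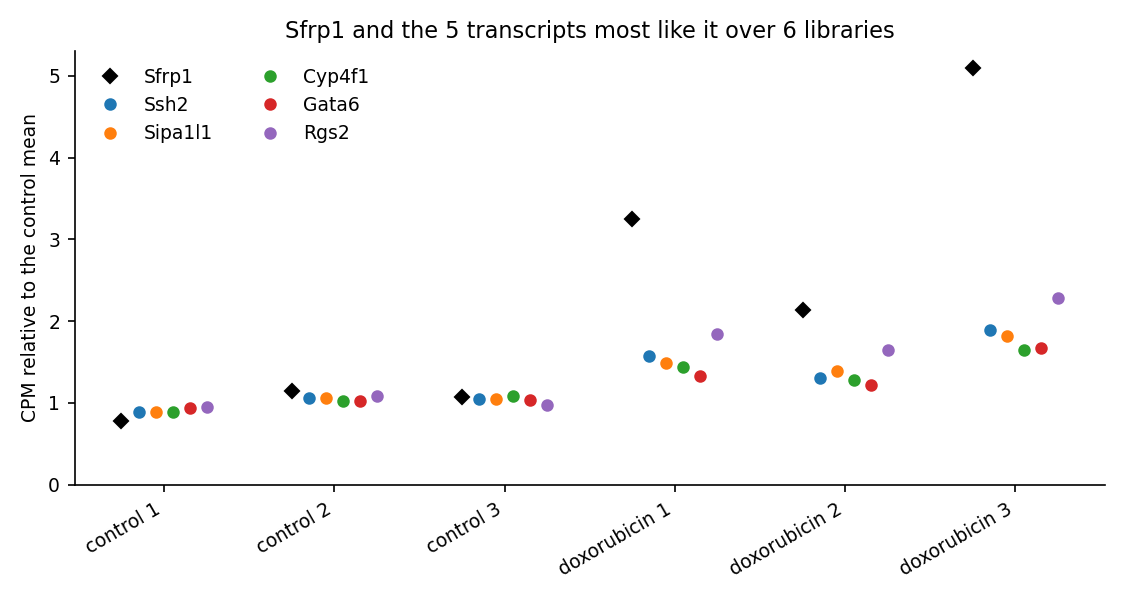
CPM relative to the mean of the 3 control rats (linear axis from 0) for Sfrp1 and the 5 transcripts with the highest Pearson's r to it, in each of the 6 libraries; points of a library are set side by side. All 6 transcripts are lowest in the control hearts and highest in treated rat 3, and Sfrp1 has the widest range.

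Other cell marker lists were described by their most abundant genes. Among smooth muscle and pericyte markers 5 of 10 were above control (Abcc9, log2 fold change 0.35, and Acta2, -0.44), and among endothelial markers 5 of 10 (Pecam1, 0.03, and Vwf, 0.36). Of the activated fibroblast markers 4 of 7 were tested, 2 above and 2 below control, with a median of 0.49. Fn1 was at -0.15, Fap at -0.21, Thbs4 at 1.12 and Postn, the 1 at an unadjusted p under 0.05 in edgeR, at 1.27. Of the mesothelial markers only Wt1 was tested (-0.30), with Msln at 0 to 8 counts per library, and Schwann cell markers had 3 tested genes, including Gfra3 (-0.52) and Sox10 (0.01). Macrophage and cardiomyocyte examples were Lyz2 (0.82), C1qa (0.39), Actc1 (-0.14) and Myh6 (-0.73). The atrial genes Myl7 (-3.73) and Kcnj3 (0.26) and the erythroid genes Hba-a1 (-1.04) and Hba-a2 (-1.07) complete the lists. Control rat 1 was far above the other libraries in Myl7, Hba-a1 and Hba-a2, and without it their log2FCs were 0.27, -0.31 and -0.25. Without it Abcc9 stood at -0.01 and Actc1 at -0.02. Over all marker lists 67 genes were tested in edgeR, 0 passed the adjusted threshold and 7 had an unadjusted p under 0.05 (Cd163, Lyz2, Mrc1 and Postn higher, Myh6, Tie1 and Tnni3 lower). Limma voom also called 0, and DESeq2, without the low-count filter, called 0 of 83. Without control rat 1 there were 4 at an unadjusted p under 0.05 in edgeR, Lyz2 and Myh6 of those 7 and also Cdh5 and Notch3. Cd163, Mrc1, Postn, Tie1 and Tnni3 no longer reached it, at log2FCs of 0.86, 0.43, 0.95, -0.41 and -0.24. Without control rat 2 there were 10, with 1, the atrial marker Sln, past the adjusted threshold in edgeR. Their part in the values of the 7 inhibitors was not tested.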

How the data were processed

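The authors deposited raw read counts per gene symbol for 6 heart libraries in a single table; FastQC, Trimmomatic, STAR, HTSeq and the build mRatBN7.2 are named in the submitters' processing notes, with settings, strand use and annotation not given in the sources used here. No coordinates or sequences are printed. The table held 18473 rows under 17487 symbols, and rows of a symbol were summed (599 symbols stood on several rows). Groups and replicate numbers came from the sample titles.

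Differences were fitted by quasi-likelihood in edgeR 4.0.16 under R 4.3.3, with TMM scaling, robust dispersions and filterByExpr (minimum count 10, minimum total 15), Benjamini-Hochberg adjusted over 9205 symbols at a threshold of 0.05; it was tested on simulated data. A standard error is the absolute log2 fold change over the square root of F. Log2 CPM used a prior count of 2. Library totals, 2219685 to 3508282 counts, limit precision for low genes, and 4 residual degrees of freedom limit the test. Shares of counts have Wilson intervals at the 95% level.

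The members and lists were chosen with earlier results of these data known. Named genes were the 7 inhibitors, pathway genes with an unadjusted p under 0.05 and the 2 most abundant of each pathway or marker list. The tested proteinase partners and the 5 symbols most like Sfrp1 were also named. Pdgfra was named outside this rule, and others were named after their values were seen. Alternatives were median-of-ratios factors, library size only, no filter, a mean CPM of at least 1, DESeq2 1.42.0, limma 3.58.1 voom, a replicate block, fits that each drop 1 library, and only symbols on 1 row. Libraries of a group differed by more than sampling noise (chi-square per degree of freedom 4.11 or more). Figures and tables used Python 3.11.15.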

Additional observations from a re-analysis of the deposited data

How the results depend on the processing

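The number of symbols past the adjusted p of 0.05, 5 in the edgeR fit, was 6 with median-of-ratios factors, 0 with library size only, 61 with no filter, 75 with DESeq2, 0 with limma voom, 13 with the replicate block and 1 with only symbols on 1 row, and from 0 to 35 when each library was left out in turn (35 without treated rat 2, 4 without control rat 2, and 0 in the other 4 such fits). Unadjusted p under 0.05 was reached by 531 to 978 symbols over the 14 alternatives. The 4 Wnt pathway genes at an unadjusted p under 0.05 became 8 with library size only and 7 with no filter, and from 1 to 9 when each library was left out, with 1 without treated rat 3, 2 without control rat 1, 7 without treated rat 1 and 9 without treated rat 2. With the replicate block there were 3. No pathway gene passed the adjusted threshold in any of the 14 alternatives.

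The log2FC of Sfrp1 ran from 1.44 to 2.07 over the 14 alternatives and was 1.76 with the replicate block. Sfrp1 was past the adjusted threshold in 4 of them, with no filter, DESeq2, the replicate block and without treated rat 2. Since the same contrast chose the family, nothing is read from these calls. Each of the 6 tested inhibitors kept the sign of its log2FC in each of its 14 alternatives, which are refits of the same libraries. Some of these values set no clear direction, such as Sfrp5 at 0.05 (SE 0.62) without control rat 1 and Frzb at -0.55 (SE 0.53) without treated rat 3. Dkk3 ran from 0.31 to 0.74 and Wif1 from 0.35 to 0.57. Same-numbered libraries did not deviate together (r of their deviations 0.0211, -0.185 and -0.0559 for numbers 1, 2 and 3), and nothing in the labels pairs the rats. Depth limits Sfrp2, Sfrp4, Sfrp5, Frzb and Wif1, whose largest count in a library was 25. The cause of a change between settings was not tested.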
